A study of Mus musculus with 10 samples.

Results

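The complement and coagulation factors are blood proteins that the liver secretes, and their transcripts were followed here across livers with and without Mboat7 knockdown. The 42 genes were picked by symbol from the 24411 genes of the count table by what they encode. All 42 were among the 12609 genes that reached 1 CPM (a count scaled to library size) in at least 1 library and were tested, and every CPM value given is scaled by upper-quartile factors. They comprise 19 genes of clotting, fibrinolysis and anticoagulation, the 3 chains of C1q and 20 other complement genes. By textbook source, 38 of them are made by hepatocytes and the 3 C1q chains by macrophages, while Cfd, which encodes the protease adipsin, is in mice made by adipocytes.

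Coagulation is a chain of proteases that activate each other until thrombin cuts fibrinogen into fibrin, and anticoagulant inhibitors and the fibrinolytic enzyme plasmin hold it in check. Complement is another protease cascade, started by C1q bound to antibody, by mannose-binding lectins or by the alternative pathway, which meets at C3 and ends in the membrane attack complex. Hepatocytes supply nearly all of these proteins to plasma, whereas C1q comes from tissue macrophages such as Kupffer cells.

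RNA came from 10 whole-liver samples of male C57BL/6 mice that started at 8 weeks of age, ate a high-fat diet and received intraperitoneal antisense oligonucleotides (ASO) at 12.5 mg/kg for 20 weeks. A non-targeting ASO was given in 5 samples (control ASO, replicates 1 to 5) and an ASO against Mboat7 in the other 5 (Mboat7 ASO, replicates 6 to 10). The labels do not say which Mboat7 ASO was used, these ASOs also reach adipose tissue and reticuloendothelial cells, to which Kupffer cells belong, and the tissue is labelled as normal liver for controls and as severe fatty liver after Mboat7 ASO. The comparison asks how these liver transcripts differ when Mboat7 is depleted on this diet. Mboat7 itself had 36.2 to 43.7 CPM in control ASO libraries and 1.97 to 4.66 CPM in Mboat7 ASO libraries, a log2 fold change ± standard error of -3.63 ± 0.17, edgeR adjusted p = 1.29e-06, and changes are given in that form throughout. Libraries held 25153235 to 28791798 counts, and hepatocyte transcripts dominated each of them, with albumin alone at 8.82% to 9.89% of control ASO counts and 6.59% to 9.43% of Mboat7 ASO counts. The summed macrophage markers of control ASO replicate 2 (570.5 CPM, the highest control) and Mboat7 ASO replicate 9 (478 CPM, the lowest treated library) overlapped.

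The C1q chains and the fibrinogen chains are each encoded side by side, and sequence near their start sites is shown for a macrophage-made and a hepatocyte-made set within the same cascades. On chromosome 4 (GRCm38, minus strand), C1qb spans 136880129 to 136886187, C1qc 136889804 to 136893065 and C1qa 136895917 to 136898803. On chromosome 3, Fgg spans 83007724 to 83015049 and Fga 83026076 to 83033627 on the plus strand, and Fgb 83040141 to 83049863 on the minus strand. RefSeq promoter windows of GRCm38.p6, from 250 bases before to 50 after the start, matched 32 of the 42 genes by symbol. Both strands were searched for GAGGAA (the core bound by PU.1, a myeloid factor), GTTAAT (the core bound by HNF1), TTGCNNAA (a C/EBP site) and CTGGGAA (an element of IL-6 responsive genes), and matches are in capitals. None of the matches shown overlaps another, and the RefSeq start lies upstream of the GENCODE one used for the span in C1qb and inside that span in C1qc, Fga and Hc.

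In C1qb (chr4:136886151-136886450, minus strand) and C1qc (chr4:136892865-136893164, minus strand) the capitals mark GAGGAA, on the forward strand from base -30 in C1qb and on the reverse strand from base -193 in C1qc, counted from the start site.
C1qb: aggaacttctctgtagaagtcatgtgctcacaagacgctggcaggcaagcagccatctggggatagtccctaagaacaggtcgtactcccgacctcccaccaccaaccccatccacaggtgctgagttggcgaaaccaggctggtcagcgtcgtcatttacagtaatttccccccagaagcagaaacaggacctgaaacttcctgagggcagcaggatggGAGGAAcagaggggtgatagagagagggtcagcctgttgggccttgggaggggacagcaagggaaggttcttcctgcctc
C1qc: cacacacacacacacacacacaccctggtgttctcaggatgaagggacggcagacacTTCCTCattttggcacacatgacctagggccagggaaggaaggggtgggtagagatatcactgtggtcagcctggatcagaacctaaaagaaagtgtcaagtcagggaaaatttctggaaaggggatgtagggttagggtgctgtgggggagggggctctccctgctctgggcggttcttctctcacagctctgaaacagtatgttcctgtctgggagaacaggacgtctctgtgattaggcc

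The fibrinogen windows are those of Fga (chr3:83025903-83026202, plus strand), Fgb (chr3:83049814-83050113, minus strand) and Fgg (chr3:83007474-83007773, plus strand). In Fga the capitals mark a C/EBP match from base -135 and an HNF1 match from base -43. In Fgb they mark 2 GAGGAA matches from bases -159 and -125, then CTGGGAA from -91, the C/EBP match from -80 and the HNF1 match from -29. The single match in Fgg is CTGGGAA from base -13.
Fga: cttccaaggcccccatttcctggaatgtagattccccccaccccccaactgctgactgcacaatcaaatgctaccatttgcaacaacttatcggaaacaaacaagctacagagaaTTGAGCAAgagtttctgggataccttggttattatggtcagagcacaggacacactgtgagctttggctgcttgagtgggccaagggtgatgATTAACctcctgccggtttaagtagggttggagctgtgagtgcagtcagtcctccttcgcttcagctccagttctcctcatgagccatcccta
Fgb: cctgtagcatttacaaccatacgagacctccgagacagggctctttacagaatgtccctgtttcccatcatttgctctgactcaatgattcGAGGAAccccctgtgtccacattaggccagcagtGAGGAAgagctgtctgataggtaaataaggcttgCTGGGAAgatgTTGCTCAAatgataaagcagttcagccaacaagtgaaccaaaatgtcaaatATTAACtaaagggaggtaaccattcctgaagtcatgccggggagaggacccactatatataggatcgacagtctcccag
Fgg: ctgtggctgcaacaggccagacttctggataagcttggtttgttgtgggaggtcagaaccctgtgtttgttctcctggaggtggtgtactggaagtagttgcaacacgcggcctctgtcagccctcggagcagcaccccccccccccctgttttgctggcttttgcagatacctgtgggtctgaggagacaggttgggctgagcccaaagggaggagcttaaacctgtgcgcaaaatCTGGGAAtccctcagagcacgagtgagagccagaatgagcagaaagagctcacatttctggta

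Hc, which encodes complement C5, is shown as a hepatocyte-made gene that rose (chr2:35061363-35061662, minus strand), with an HNF1 match from base -74.
Hc: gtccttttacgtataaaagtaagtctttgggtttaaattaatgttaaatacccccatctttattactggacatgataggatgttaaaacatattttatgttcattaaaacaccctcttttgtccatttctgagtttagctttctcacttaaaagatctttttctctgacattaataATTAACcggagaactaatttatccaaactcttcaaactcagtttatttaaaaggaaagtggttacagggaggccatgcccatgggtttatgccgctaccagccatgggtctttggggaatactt

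Among the 29 hepatocyte-made genes with a window, GTTAAT was present in 10 (34.5%, against 7.2% of 27025 RefSeq promoters), TTGCNNAA in 9 (31%, against 10.8%), CTGGGAA in 7 (24.1%, against 11.1%) and GAGGAA in 3 (10.3%, against 28.3%). Both C1q windows held GAGGAA and no other of these letter patterns. The window of Mbl2, a hepatocyte-made gene that fell, held none of them. A match is a string of letters and was not tested as a binding site.

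Most of the hepatocyte-made factors were modestly lower in Mboat7 ASO livers, while the C1q chains were the members with the largest increase. Of the 42 genes, 22 fell and 8 rose at an FDR of 0.05 (edgeR quasi-likelihood test, adjusted over all genes tested), where 17.3% of all genes tested fell and 21.2% rose. The 3 C1q chains were the only members that changed by more than 2-fold, upwards, as did 6.43% of all genes, while 0.666% of all genes fell by that much. The groups did not overlap, lower after Mboat7 ASO, in 13 members (10.7% of all genes) and, higher, in 2 (10.5%). The median log2 fold change was -0.22 over the 42 members, -0.25 over the 38 hepatocyte-made ones and 0.01 over all genes. Of those 38, 22 fell and 5 rose (57.9% and 13.2%). A stricter hepatocyte-made set of 28 members had 19 lower and 2 higher (67.9% and 7.14%, median -0.33). It was drawn from the same members with results known and is no separate support. Coagulation genes leaned further down (15 of 19 fell, 2 rose, median -0.34) than complement genes other than C1q (7 of 20 fell, 3 rose, median -0.13), a difference that was not tested. With no normalization factor, which put the median of all genes at 0.17, 13 members were lower and 10 higher (31.0% and 23.8% of them, against 6.10% and 37.1% of all genes) and the hepatocyte-made median was -0.09. Fewer cells of a type and less RNA per cell cannot be told apart in whole tissue.

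**Figure D1:**
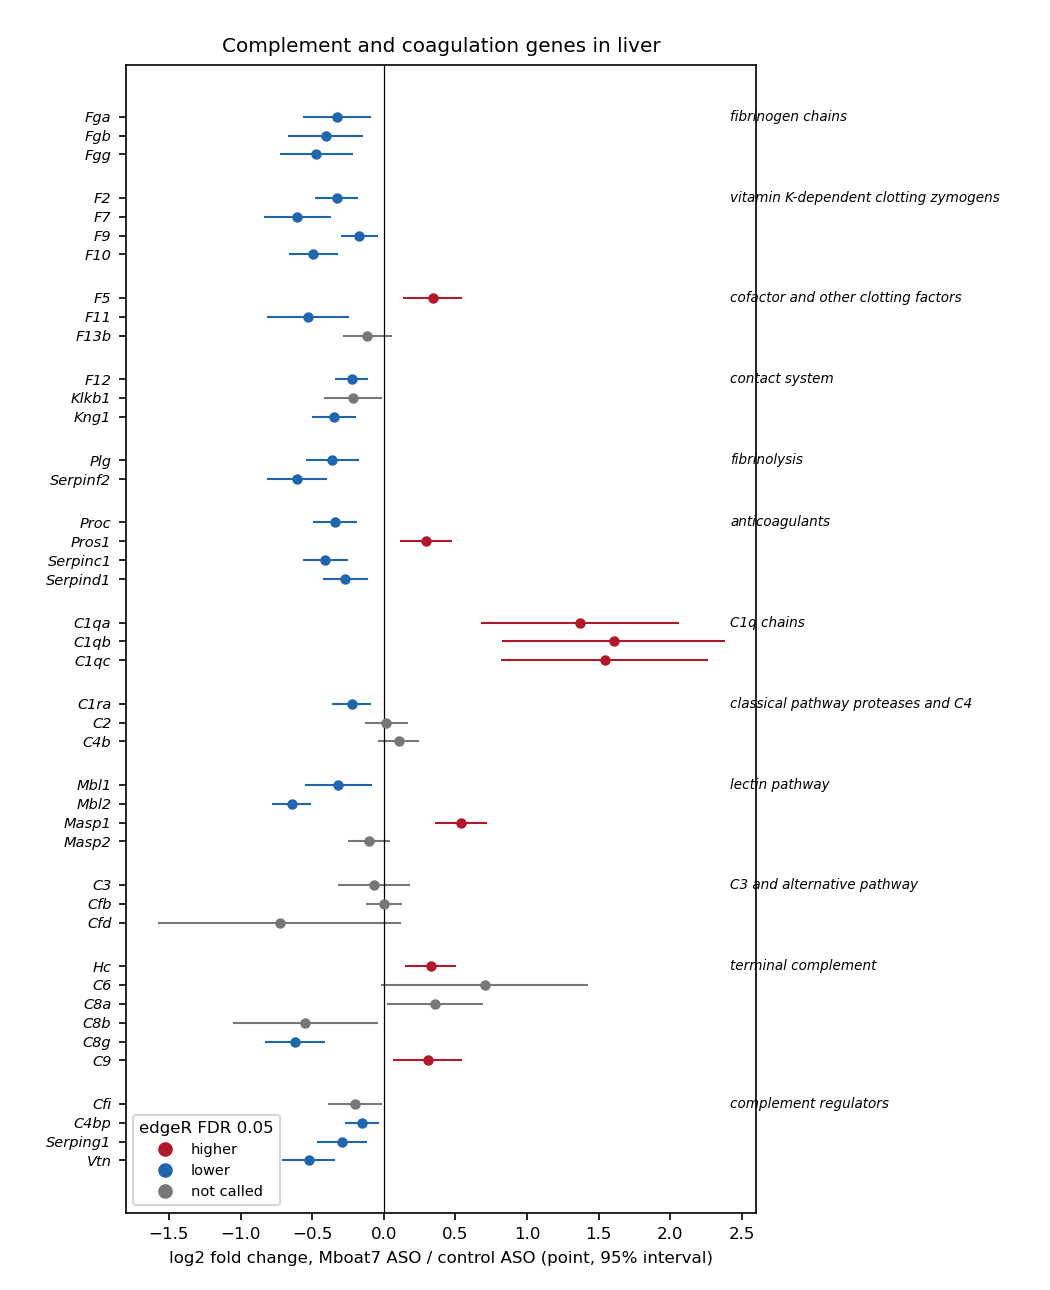
Log2 fold change of each of the 42 genes, Mboat7 ASO over control ASO (n = 5 per group), with the point as the edgeR estimate and the line as its 95% interval, grouped by role and coloured by the call at an FDR of 0.05. The 3 C1q chains lie between 1.37 and 1.61, apart from the rest, and 22 genes in blue lie below 0.

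The 3 fibrinogen chains, the substrate of the clot, all fell by about the same amount but with groups that touched. Fgg, the gamma chain, had 3455, 2696, 3217, 2955 and 2469 CPM in control ASO replicates 1 to 5 and 2189.8, 2559, 2082, 2091 and 1740.3 CPM in Mboat7 ASO replicates 6 to 10, a change of -0.47 ± 0.12, edgeR adjusted p = 0.00979. Only Mboat7 ASO replicate 7 lay above the lowest control. Fga, the alpha chain and the most abundant member per length (1834 CPM per kb in controls), had 3782 to 4639 CPM in control ASO libraries and 2766 to 4141 CPM in Mboat7 ASO libraries (-0.33 ± 0.11, edgeR adjusted p = 0.0354). Fgb, the beta chain, had 2983 to 3828 CPM in control ASO libraries and 2099 to 3259 CPM in Mboat7 ASO libraries (-0.41 ± 0.12, edgeR adjusted p = 0.0219). Mboat7 ASO replicate 7 was the highest and replicate 10 the lowest treated library for each chain, and the chains kept nearly the same proportion to each other, with a ratio of Fga to Fgb counts of 1.20 to 1.298 in controls and 1.27 to 1.36 after Mboat7 ASO. The call of Fga ended without any 1 of 6 libraries (control ASO 1, 3 or 4, or Mboat7 ASO 8, 9 or 10, at -0.26 to -0.32 with adjusted p of 0.0621 to 0.0790), and that of Fgb without control ASO 1 or 3 or Mboat7 ASO 8 (-0.36 to -0.38, adjusted p 0.0511 to 0.0549).

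All 4 vitamin K-dependent clotting proteases fell, and 3 of them with no overlap between groups. F7, the protease that tissue factor binds to start clotting, had 97.1, 82.9, 119, 105 and 104 CPM in control ASO replicates 1 to 5 and 60.3, 80.9, 66.0, 68.2 and 58.9 CPM in Mboat7 ASO replicates 6 to 10. Every treated library lay below every control, and the change was -0.60 ± 0.11, edgeR adjusted p = 0.00310. F10, which cuts prothrombin, had 436, 418, 504, 468 and 468 CPM in control ASO replicates 1 to 5 and 314, 374, 324, 329.6 and 291 CPM in Mboat7 ASO replicates 6 to 10 and was likewise separate (-0.49 ± 0.08, edgeR adjusted p = 0.00224). F2, prothrombin itself, had 2243 to 2560.4 CPM in control ASO libraries and 1819.8 to 2134 CPM in Mboat7 ASO libraries (-0.33 ± 0.07, edgeR adjusted p = 0.00509). F9, the gene mutated in human haemophilia B, differed least, at 289 to 324 CPM in control ASO libraries and 255 to 290.4 CPM in Mboat7 ASO libraries (-0.17 ± 0.06, edgeR adjusted p = 0.0391), and its call ended when any 1 of 7 libraries was left out (control ASO 2, 3, 4 or 5, or Mboat7 ASO 6, 9 or 10, at -0.14 to -0.18 with adjusted p of 0.0500074 to 0.0930). Vkorc1, the reductase that recycles vitamin K and is the target of warfarin, also fell (-0.41 ± 0.09, edgeR adjusted p = 0.00562, groups separate), whereas Ggcx, the carboxylase that uses it, stood at 0.03 ± 0.06 and did not pass (both chosen after their values were seen). With the gene-length trend removed, the call of Vkorc1 ended (-0.16, adjusted p = 0.0553).

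F5, the cofactor of factor Xa, went against the other clotting factors. Its level was 645, 783, 729, 800.5 and 898 CPM in control ASO replicates 1 to 5 and 849, 974, 1041, 964 and 1055 CPM in Mboat7 ASO replicates 6 to 10, so that 4 of 5 treated libraries exceeded every control, and it rose (0.34 ± 0.09, edgeR adjusted p = 0.0153). F11, a protease that activates factor IX, had 105 ± 14.2 CPM in controls and 73.1 ± 13.5 CPM after Mboat7 ASO (mean ± SD, n = 5) and fell (-0.53 ± 0.13, edgeR adjusted p = 0.0103), with Mboat7 ASO replicate 9 inside the control range. F13b, the carrier subunit of the enzyme that cross-links fibrin, had 221 ± 18.5 CPM in controls and 204 ± 18.7 CPM after Mboat7 ASO and did not pass (-0.12 ± 0.08, 95% interval -0.29 to 0.06).

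In the contact system, which starts clotting on charged surfaces and releases bradykinin, F12 and Kng1 fell and Klkb1 did not pass. F12, the initiating protease, had 647, 639.6, 658, 621 and 592 CPM in control ASO replicates 1 to 5 and 528, 550.4, 531, 569 and 526 CPM in Mboat7 ASO replicates 6 to 10. The groups were separate although the change was small (-0.22 ± 0.05, edgeR adjusted p = 0.00820), and F12 varied little within a group (coefficient of variation 4.10% and 3.39%). Kng1, the kininogen from which bradykinin is cut, had 1734 to 2008 CPM in control ASO libraries and 1355 to 1630.3 CPM in Mboat7 ASO libraries (-0.35 ± 0.07, edgeR adjusted p = 0.00454), and reads of its near-identical copy Kng2 (-0.23 ± 0.06) may be shared with it. Klkb1, plasma prekallikrein, had 200.2 to 255 CPM in control ASO libraries and 156 to 211 CPM in Mboat7 ASO libraries (-0.21 ± 0.09, edgeR adjusted p = 0.0872), and it passed when libraries 2 and 9 were left out (-0.29) or the length trend was removed (-0.38).

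Both fibrinolysis genes fell with no overlap, the enzyme together with its inhibitor. Plg, which encodes plasminogen, had 2526 to 3198 CPM in control ASO libraries and 2043 to 2479.8 CPM in Mboat7 ASO libraries (-0.36 ± 0.08, edgeR adjusted p = 0.00796). Serpinf2, which encodes alpha-2-antiplasmin, the main plasmin inhibitor, had 1022, 937, 1141, 982 and 1136 CPM in control ASO replicates 1 to 5 and 615, 811, 706, 709 and 587 CPM in Mboat7 ASO replicates 6 to 10. Its highest treated library, replicate 7, stayed below its lowest control, and the change was -0.61 ± 0.10, edgeR adjusted p = 0.00233, the lowest estimate among the coagulation members.

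Of the 4 anticoagulants, 3 fell and Pros1 rose. Serpinc1, antithrombin, had 2213 to 2511 CPM in control ASO libraries and 1639 to 2007 CPM in Mboat7 ASO libraries with no overlap (-0.41 ± 0.07, edgeR adjusted p = 0.00302). Proc, protein C, had 536 to 673 CPM in control ASO libraries and 444 to 505 CPM in Mboat7 ASO libraries, also with no overlap (-0.34 ± 0.07, edgeR adjusted p = 0.00493). Serpind1, heparin cofactor II, had 601 to 697 CPM in control ASO libraries and 495 to 616 CPM in Mboat7 ASO libraries (-0.27 ± 0.07, edgeR adjusted p = 0.0149), with Mboat7 ASO replicate 7 above the lowest control. Pros1, protein S, the cofactor of protein C, had 61.8, 84.5, 70.6, 78.2 and 69.2 CPM in control ASO replicates 1 to 5 and 93.8, 92.8, 89.7, 79.9 and 90.7 CPM in Mboat7 ASO replicates 6 to 10. Only replicate 9 of the treated libraries lay inside the control range (0.29 ± 0.08, edgeR adjusted p = 0.0172). Protein C and its cofactor thus had opposite directions in the same livers. Endothelial cells also make protein S.

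**Figure D2:**
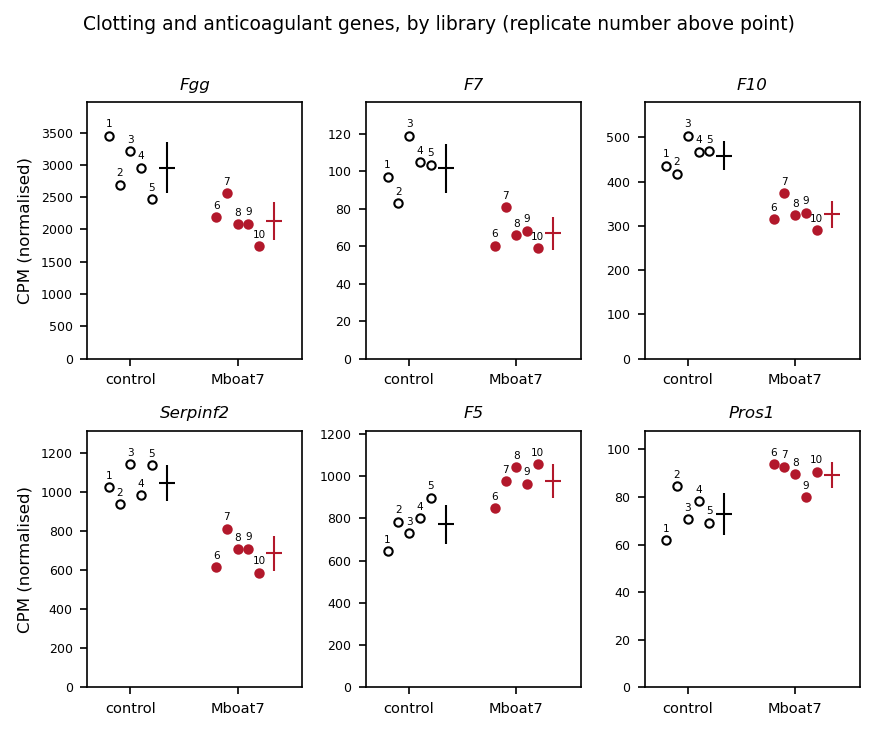
Normalised CPM of 6 clotting, fibrinolysis and anticoagulant genes in each library, open points for control ASO and filled points for Mboat7 ASO, with the replicate number above each point and a bar for mean ± SD (n = 5). F7, F10 and Serpinf2 separate downwards, Fgg overlaps through replicate 7, and F5 and Pros1 lie higher in the treated livers with 4 of 5 libraries above every control.

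The C1q chains, which form the recognition part of the classical pathway, were higher in Mboat7 ASO livers by 2.58-fold to 3.05-fold, with wide spread. C1qa had 18.2, 42.1, 24.7, 30.1 and 21.1 CPM in control ASO replicates 1 to 5 and 116, 73.7, 79.2, 35.2 and 47.5 CPM in Mboat7 ASO replicates 6 to 10. C1qb had 16.9, 40.3, 21.4, 29.01 and 16.9 CPM in control ASO replicates 1 to 5 and 128, 80.8, 87.8, 34.8 and 47.2 CPM in Mboat7 ASO replicates 6 to 10. C1qc had 17.7, 38.8, 20.2, 25.6 and 16.1 CPM in control ASO replicates 1 to 5 and 115, 69.2, 79.0, 33.3 and 48.5 CPM in Mboat7 ASO replicates 6 to 10. In all 3 chains control ASO replicate 2 was the highest control and exceeded Mboat7 ASO replicate 9, the lowest treated library, so the groups overlapped through that pair while the other 4 treated libraries lay above every control. The changes were 1.37 ± 0.32, edgeR adjusted p = 0.00749 for C1qa, 1.61 ± 0.36, edgeR adjusted p = 0.00639 for C1qb and 1.54 ± 0.33, edgeR adjusted p = 0.00561 for C1qc. All 3 calls held when each library was left out in turn, at 1.11 to 1.58, 1.32 to 1.85 and 1.27 to 1.80 respectively. Without libraries 2 and 9 they were 1.751, 2.03 and 1.97. That pair holds the highest control and the lowest treated library, so leaving it out widens the change by construction and is no check of it. The coefficient of variation of the chains was 34.5% to 39.8% in controls and 44.6% to 48.7% after Mboat7 ASO, well above that of most hepatocyte-made members.

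C1q moved together with macrophage markers across the libraries. The ratio of C1qa to Csf1r, the receptor for macrophage colony-stimulating factor, was 1.20 to 1.36 in controls and 1.17 to 1.34 after Mboat7 ASO, and that of C1qa to Adgre1, which encodes F4/80, was 2.85 to 3.64 and 2.51 to 3.49. Relative to Ptprc, the leukocyte marker CD45, C1qa was lower after Mboat7 ASO, with ratios of 3.61 to 5.80 in controls and 1.84 to 3.04 in treated livers that did not overlap. Csf1r rose (1.35 ± 0.32, edgeR adjusted p = 0.00836), as did Adgre1 (1.61 ± 0.36, edgeR adjusted p = 0.00700) and Ptprc (2.38 ± 0.44, edgeR adjusted p = 0.00342), the 3 genes being chosen after their values were seen. Of the 16 macrophage markers on the list, 12 rose and 1 fell (75% and 6.25%, against 21.2% and 17.3% of all genes, median 1.34). Their summed level was 270.0 to 570.5 CPM in controls and 478 to 974 CPM in treated livers. Those of lowest p were Siglec1 (1.36 ± 0.25), Ms4a7 (2.10 ± 0.39), Lyz2 (1.33 ± 0.27) and Cd68 (1.70 ± 0.34). The part of macrophage number in the C1q values was not tested.

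**Figure D3:**
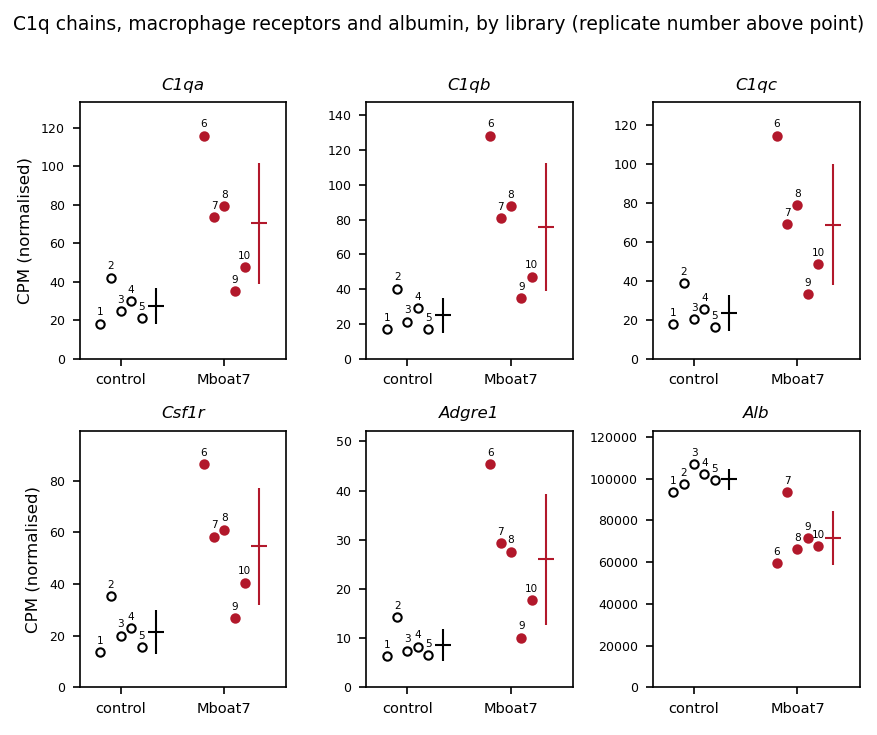
Normalised CPM of the 3 C1q chains, the macrophage receptors Csf1r and Adgre1, and albumin (Alb) in each library, open points for control ASO and filled points for Mboat7 ASO, with the replicate number above each point and a bar for mean ± SD (n = 5). The 3 chains and both receptors share one order of treated libraries at the top and bottom, replicate 6 highest and replicate 9 lowest, and control ASO replicate 2 is the highest control in each.

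The gap between C1q and the hepatocyte-made factors was smaller in Mboat7 ASO livers. Per library, the mean log2 CPM of the C1q chains minus that of the 38 hepatocyte-made members was taken. It was -4.60 ± 0.53 in controls (mean ± SD, n = 5, range -5.10 to -3.80) and -2.97 ± 0.71 after Mboat7 ASO (range -3.94 to -2.02), a difference of 1.63. The C1q side of this contrast moved by 1.45 and the hepatocyte-made side fell by 0.18. No test is given, since the members were chosen with results known. The 42 genes together took 4.22% ± 0.17 of all counts in controls and 4.003% ± 0.24 after Mboat7 ASO (mean ± SD), a difference within the spread of the treated libraries. Per length of transcript, control levels ran from 13.2 CPM per kb for Masp1 to 1834 for Fga, and the C1q chains (19.7 to 26.2) ranked 38, 39 and 41 of 42.

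The remaining classical pathway genes changed little. C1ra, the protease that C1q activates, had 158 ± 7.24 CPM in controls and 135 ± 10.4 CPM after Mboat7 ASO (mean ± SD) and fell (-0.22 ± 0.06, edgeR adjusted p = 0.0168). C2 had 106 to 125 CPM in control ASO libraries and 108 to 131 CPM in Mboat7 ASO libraries (0.02 ± 0.07, 95% interval -0.13 to 0.17). C4b, the mouse C4 gene, had 1333 to 1543 CPM in control ASO libraries and 1448 to 1643 CPM in Mboat7 ASO libraries (0.10 ± 0.06, 95% interval -0.04 to 0.24). Neither passed, and reads of C4b and its near-identical copy C4a (0.96 ± 0.47, not passed) may be split. C4a passed without control ASO 2 (1.35, adjusted p = 0.0345). Within the classical pathway the 3 chains made by macrophages thus rose while its 3 hepatocyte-made members fell or did not pass.

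Lectin pathway genes moved in both directions. Mbl2, the mannose-binding lectin C, had 604, 600.4, 653, 598 and 610.2 CPM in control ASO replicates 1 to 5 and 378, 442, 399, 377 and 367 CPM in Mboat7 ASO replicates 6 to 10. The groups were far apart relative to their spread, at -0.64 ± 0.06, edgeR adjusted p = 7.76e-04, and Mbl2 ranked 6 of 12609 genes by p value. Mbl1, mannose-binding lectin A, had 139 to 217 CPM in control ASO libraries and 130.0 to 147 CPM in Mboat7 ASO libraries (-0.32 ± 0.11, edgeR adjusted p = 0.0353), a call that ended without any 1 of 6 libraries (control ASO 1 or 3, or Mboat7 ASO 6, 7, 8 or 10, at -0.22 to -0.33 with adjusted p of 0.0535 to 0.0829). Masp1, which encodes a protease bound to these lectins, had 45.5, 47.7, 46.7, 50.0 and 59.6 CPM in control ASO replicates 1 to 5 and 65.8, 80.1, 67.0, 76.5 and 73.2 CPM in Mboat7 ASO replicates 6 to 10. It rose with no overlap (0.54 ± 0.08, edgeR adjusted p = 0.00220), the largest increase among the hepatocyte-made members that passed. Masp2, the protease that cuts C4, had 338 to 379 CPM in control ASO libraries and 286 to 359 CPM in Mboat7 ASO libraries and did not pass (-0.10 ± 0.07). Masp1 overlaps Rtp4 on the opposite strand, and Rtp4 fell (-0.42 ± 0.13), a call that ended without control ASO 1 or 3 (-0.35 and -0.39).

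C3, on which all pathways meet, and the alternative pathway genes did not pass. C3 had 5448, 6275, 7135, 7483 and 7420.3 CPM in control ASO replicates 1 to 5 and 6538, 7479.9, 6429, 5193 and 6542 CPM in Mboat7 ASO replicates 6 to 10, with overlapping groups and a change of -0.07 ± 0.12 (95% interval -0.32 to 0.18). Cfb, factor B of the C3 convertase, had 1360.2 to 1525 CPM in control ASO libraries and 1338 to 1489 CPM in Mboat7 ASO libraries, at 0.00 ± 0.06 (95% interval -0.13 to 0.13). Cfd, adipsin, which cuts factor B, was scattered in both groups at 14.6 to 50.4 CPM in control ASO libraries and 8.03 to 25.6 CPM in Mboat7 ASO libraries (-0.73 ± 0.39), and its estimate was -0.38 without control ASO 4. Of the adipocyte markers, Adipoq, Retn and Plin1 did not reach the level required for testing.

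The terminal pathway, which builds the membrane attack complex, was split gene by gene. Hc, complement C5, had 978, 1008, 967, 1051 and 907 CPM in control ASO replicates 1 to 5 and 1160.0, 1417, 1327, 1158 and 1099 CPM in Mboat7 ASO replicates 6 to 10. Every treated library exceeded every control (0.33 ± 0.08, edgeR adjusted p = 0.00972). C9, which forms the ring of the pore, had 385 ± 54.4 CPM in controls and 476 ± 56.0 CPM after Mboat7 ASO (mean ± SD) and rose (0.31 ± 0.11, edgeR adjusted p = 0.0459). Its call ended without any 1 of 7 libraries (control ASO 3, 4 or 5, or Mboat7 ASO 6, 7, 8 or 9, at 0.25 to 0.31 with adjusted p of 0.0656 to 0.107). C6 had 199.6, 130.1, 81.1, 59.8 and 56.0 CPM in control ASO replicates 1 to 5 and 166, 191, 183, 207 and 111 CPM in Mboat7 ASO replicates 6 to 10. Control ASO replicates 1 and 2 lay within the treated range and the other 3 controls below all of it, and C6 did not pass (0.70 ± 0.33, adjusted p = 0.108) but did without control ASO 1 (1.07, adjusted p = 0.0148).

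The 3 chains of C8, which assemble into 1 protein, had estimates of both signs. C8g, the gamma chain, had 549.6, 405, 515, 455 and 479 CPM in control ASO replicates 1 to 5 and 286, 318, 336, 349.6 and 275 CPM in Mboat7 ASO replicates 6 to 10. It fell with no overlap (-0.62 ± 0.09, edgeR adjusted p = 0.00205). C8a, the alpha chain, had 403 to 671 CPM in control ASO libraries and 533 to 802 CPM in Mboat7 ASO libraries (0.36 ± 0.15, adjusted p = 0.0826), and C8b, the beta chain, had 108 to 177 CPM in control ASO libraries and 55.5 to 125 CPM in Mboat7 ASO libraries (-0.55 ± 0.23, adjusted p = 0.0795). Neither passed. C8a passed without control ASO 1 (0.48, adjusted p = 0.0279), and C8b without Mboat7 ASO 7 or 9 (-0.69 and -0.67, adjusted p 0.0437 and 0.0474). The ratio of C8a to C8g counts was 0.843 to 1.43 in controls and 1.91 to 2.53 in treated livers, without overlap. That of C8a to C8b was 3.40 to 4.69 and 5.49 to 9.77, also without overlap. C8a and C8b lie next to each other on chromosome 4, at 104815679 to 104876398 (minus strand) and 104766317 to 104804548 (plus strand).

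Among the complement regulators, Vtn, Serping1 and C4bp fell. Vtn, vitronectin, which blocks insertion of the terminal complex, had 3067, 2611, 3158, 2719 and 2752 CPM in control ASO replicates 1 to 5 and 1962, 2305, 1927, 1948 and 1800.3 CPM in Mboat7 ASO replicates 6 to 10, with no overlap (-0.52 ± 0.08, edgeR adjusted p = 0.00238). Serping1, the C1 inhibitor, which restrains C1r, the MASPs, factor XII and kallikrein, had 983 to 1081 CPM in control ASO libraries and 718 to 969.5 CPM in Mboat7 ASO libraries, also with no overlap (-0.29 ± 0.08, edgeR adjusted p = 0.0154). C4bp, the C4b-binding protein, had 749 to 863 CPM in control ASO libraries and 714 to 758 CPM in Mboat7 ASO libraries (-0.15 ± 0.05, edgeR adjusted p = 0.0452), and its call ended without any 1 of 8 libraries (all but control ASO 4 and Mboat7 ASO 9, at -0.13 to -0.16 with adjusted p of 0.0626 to 0.0990) and its direction with no normalization factor (0.0073). Cfi, the protease that degrades C3b, had 771 to 847 CPM in control ASO libraries and 653 to 871 CPM in Mboat7 ASO libraries and did not pass (-0.20 ± 0.08, adjusted p = 0.0800). Without Mboat7 ASO replicate 7, the only treated library not below the control range, it did (-0.29, adjusted p = 0.00745).

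**Figure D4:**
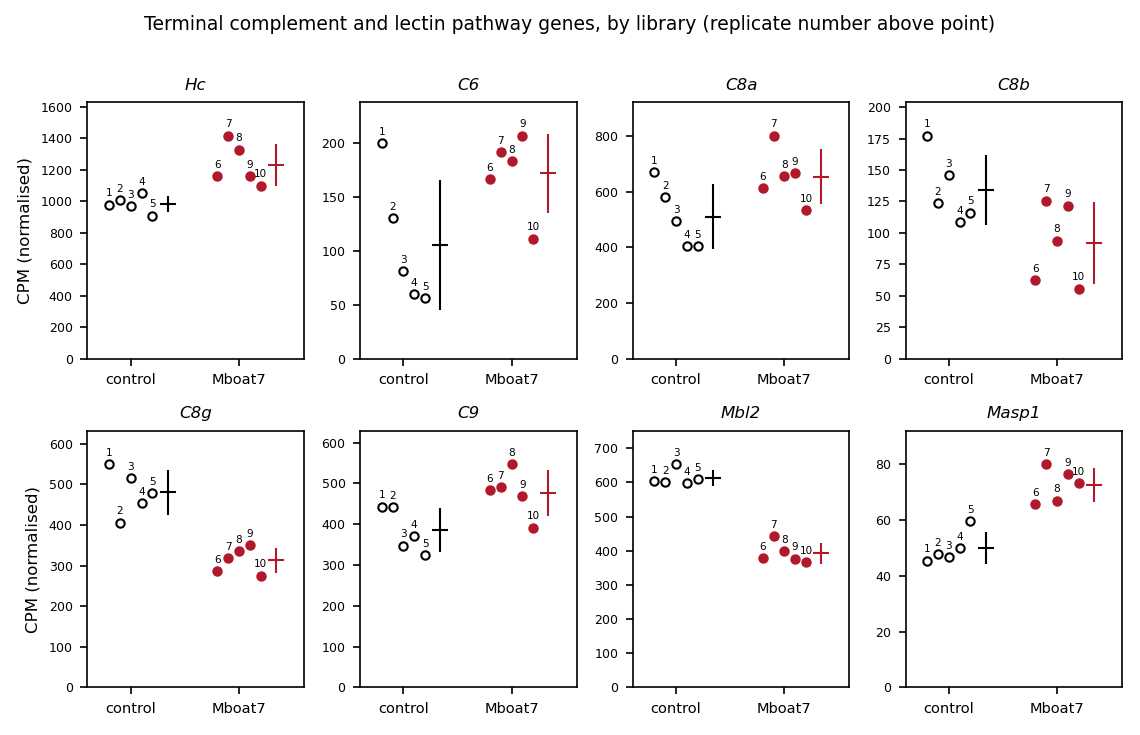
Normalised CPM of 6 terminal complement genes and 2 lectin pathway genes in each library, open points for control ASO and filled points for Mboat7 ASO, with the replicate number above each point and a bar for mean ± SD (n = 5). Hc and Masp1 separate upwards, C8g and Mbl2 downwards, and the C6 controls spread from 56.0 to 199.6 CPM.

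Direction went with transcript length among the hepatocyte-made members. Of the 10 with a transcript over 3 kb, 4 rose and 2 fell (median 0.20), and of the 28 shorter ones 1 rose and 20 fell (median -0.33). Spearman's rho between length and log2 fold change was 0.62 over these 38 genes and 0.37 over the 12160 genes with a length, points that share the same 10 libraries, and it is given as a description. The hepatocyte-made members that rose had a median length of 3.79 kb and those that fell 1.99 kb. With the length trend removed from every library, 6 of all 42 members rose and 19 fell, where 8 rose and 22 fell as tested. These counts include the C1q chains, which rose in both. The calls of Fga (-0.30, adjusted p = 0.0515), F12 (-0.05, adjusted p = 0.404), Mbl1 (-0.19, adjusted p = 0.146), Serping1 (-0.19, adjusted p = 0.0773), F5 (0.11, adjusted p = 0.275) and Hc (0.15, adjusted p = 0.149) ended, Fga with little change in its value, while Masp1, Pros1, C9 and the C1q chains kept theirs. The part of length in these values beyond this was not tested.

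**Figure D5:**
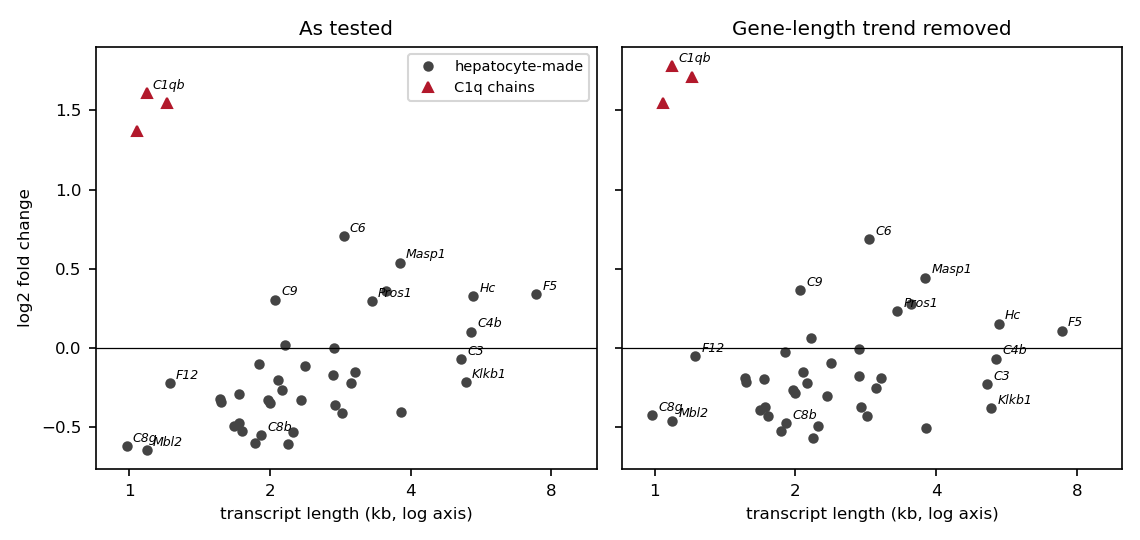
Log2 fold change (Mboat7 ASO over control ASO, n = 5 per group) against transcript length in kb on a log axis, for the 38 hepatocyte-made members (circles) and the C1q chains (triangles), as tested on the left and with the gene-length trend removed on the right. On the left F5, Hc and Masp1 stand above 0 among the long transcripts and C8g and Mbl2 below 0 among the short ones, and on the right F5 and Hc lie nearer 0.

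Most hepatocyte markers fell, and most markers of sinusoidal endothelial and stellate cells rose. Of 14 hepatocyte markers kept, 8 fell and 1 rose (57.1% and 7.14%, against 17.3% and 21.2% of all genes, median -0.47). Their summed level was 149314 to 168334 CPM in controls and 103190 to 147686 CPM in treated livers. Those of lowest p were Apoa2 (-0.67 ± 0.08), Apoh (-0.59 ± 0.09), Ttr (-0.52 ± 0.08) and Asgr1 (-0.55 ± 0.09), and the one that rose was Apob (0.46 ± 0.09, chosen after its value was seen), whose call ended with the length trend removed (0.11). Markers of sinusoidal endothelial cells (7 of 8 rose, median 0.72, summed 117 to 169 CPM in controls and 189 to 261 CPM in treated livers) and of stellate cells (7 of 8 rose, median 0.68, summed 214 to 335 CPM and 357 to 525 CPM) were higher. The share that rose was 87.5% in each of these lists, against 21.2% of all genes. Those of lowest p were Oit3 (0.75 ± 0.11), Fcgr2b (0.70 ± 0.12), Pecam1 (0.85 ± 0.18) and Kdr (0.53 ± 0.12) in the endothelial list and Reln (0.69 ± 0.10), Hgf (1.46 ± 0.25), Dcn (0.997 ± 0.18) and Colec11 (0.92 ± 0.18) in the stellate list. Of 5 cholangiocyte markers kept 1 rose (20%, Spp1, 1.18 ± 0.28), while Krt19 did not pass (-0.58 ± 0.50, or -0.13 without control ASO 1). Of 3 adipocyte markers 1 rose (33.3%, Fabp4, 0.95 ± 0.17). Plin4 did not pass (0.74 ± 0.30) except without control ASO 4 (0.90), with no normalization factor (0.91) or by the likelihood ratio test (0.74). The 3 megakaryocyte and platelet markers kept (Ppbp, Pf4 and Itga2b) rose, from summed levels of 2.92 to 4.73 CPM to 3.78 to 14.4 CPM, and 1 to 3 of them passed when a library was left out, while Gp1ba and Gp9 were below the level required for testing. The part of cell composition in the members' values was not tested.

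Genes of these pathways outside the 42 went both ways. Of 26 other coagulation and fibrinolysis genes kept, 10 rose and 8 fell (38.5% and 30.8%, against 21.2% and 17.3% of all genes, median 0.01). Tfpi, the inhibitor of tissue factor made by endothelium, rose (1.21 ± 0.16), as did F2r, the thrombin receptor (1.22 ± 0.17), and Hgf, a growth factor related to plasminogen (1.46 ± 0.25), while Hgfac, the hepatocyte-made protease that activates it, fell (-0.44 ± 0.08). Among endothelial products chosen after their values were seen, Vwf, the carrier of factor VIII, rose (0.92 ± 0.16, edgeR adjusted p = 0.00312), and so did Thbd, the receptor that turns thrombin towards protein C (1.09 ± 0.23, edgeR adjusted p = 0.00504), and F8 itself (0.49 ± 0.14, edgeR adjusted p = 0.0207). The call of F8 ended without Mboat7 ASO 6 (0.41, adjusted p = 0.0537) and with the length trend removed (0.23). Hrg, a plasma protein of hepatocytes that binds heparin and plasminogen, fell (-0.32 ± 0.09, edgeR adjusted p = 0.0186, also chosen after its value was seen), and its call ended with the length trend removed (-0.16, adjusted p = 0.223) and with no normalization factor (-0.16, adjusted p = 0.123).

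Of 19 other complement components and regulators kept, 4 rose and 1 fell (median -0.05), a share of 21.1% higher beside 21.2% of all genes. Cd55, a membrane regulator of the C3 convertase, rose (0.87 ± 0.16), as did Colec11 and Colec10 (0.92 ± 0.18 and 0.68 ± 0.17), collectins of which Colec11 is also on the stellate cell list. Cfp, properdin, which leukocytes make and which stabilises the alternative convertase, rose too (1.12 ± 0.29, edgeR adjusted p = 0.0120, chosen after its value was seen), while Cpn1, the carboxypeptidase that inactivates anaphylatoxins, fell (-0.29 ± 0.06), a call that ended with no normalization factor (-0.13). Among 9 complement receptors kept, 7 rose (77.8%, against 21.2% of all genes) and 2 did not pass (median 1.08). Itgax, Itgb2 and Itgam, which form the leukocyte receptors for C3 fragments, rose (3.53 ± 0.58, 2.56 ± 0.46 and 2.34 ± 0.47), and so did Cd93, a receptor first described as binding C1q (1.41 ± 0.25). Macrophages and other leukocytes carry these integrins.

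Acute phase genes, a list named for hepatocyte products that inflammatory cytokines induce, fell about as often as all genes. Of 15 kept, 3 fell and 12 did not pass (median -0.12), a share of 20% lower where 17.3% of all genes fell. Apcs, the mouse pentraxin SAP, fell (-0.70 ± 0.13), as did Crp (-0.27 ± 0.08) and Saa4 (-0.40 ± 0.14), and Saa3 did not pass (-1.04 ± 0.39). Saa1 (0.37 ± 0.40), Saa2 (0.40 ± 0.43), Orm1 (0.14 ± 0.12), Orm2 (0.82 ± 0.41) and Lcn2 (0.72 ± 0.48), chosen after their values were seen, had positive estimates and did not pass. The rest of those that did not pass had negative estimates. Crp kept its call without any single library except control ASO 3 or 4 or Mboat7 ASO 10 (-0.22 to -0.25), and Saa4 lost it without any 1 of 7 libraries, its value without control ASO 4 being -0.27. Both calls also ended with the length trend removed (-0.17 and -0.36) and with no normalization factor (-0.11 and -0.25). Saa3 passed with TMM, RLE, DESeq2 or edgeR's likelihood ratio test (adjusted p of 0.0245 to 0.0477) and without control ASO 3 or 5 or Mboat7 ASO 7 (-1.17 to -1.32). Among 17 liver transcription factors, 6 fell and 1 rose (median -0.06), which is 35.3% lower where 17.3% of all genes fell. The count of those lower was 3 without control ASO 3 or any 1 of Mboat7 ASO 6, 7 and 10, and also with no normalization factor. Cebpa, whose protein binds C/EBP sites, fell (-0.39 ± 0.07), as did Foxa3 (-0.55 ± 0.11) and Onecut1 (-1.71 ± 0.43), while Spi1, which encodes PU.1, rose (1.90 ± 0.43).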

How the data were processed

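Liver RNA of 10 samples was sequenced by the authors with single-end reads and a strand-preserving mRNA library kit. Per the study's methods, the authors used Trim Galore 0.3.3 for trimming, FastQC 0.11.3 for quality and STAR to align reads to mm10 and count them per gene. The deposited values are raw counts per gene symbol, not normalized. Which strand was counted is not given in the sources, and genes that overlap on opposite strands are therefore uncertain (Masp1 with Rtp4, Plg with Slc22a3, Serpind1 with Pi4ka, Serpinc1 with Zbtb37, Masp2 with Tardbp, C8g with Fbxw5, C2 with Zbtb12). The same holds for C8a with Gm17662, Hc with Gm13449, F5 with Gm16548 and Fgg with Gm30097, among other predicted genes. Klkb1 overlaps the predicted gene Gm45753 on its own strand. Also uncertain are near-identical copies (C4b and C4a, Kng1 and Kng2, C1ra and C1rb) and Cfb and C2, which share a readthrough gene model.

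Genes with at least 1 CPM in at least 1 library were kept, which removed 11802 of 24411 genes (48.3%). Counts of Mboat7 ASO against control ASO were scaled by upper quartile and compared with edgeR's quasi-likelihood test without covariates, with Benjamini-Hochberg adjustment over all genes and an FDR of 0.05. The biological coefficient of variation was 0.166. Chi-square over degrees of freedom was 21.1 to 84.2 between libraries of the same group, so each was counted as 1 replicate. Whether each library is its own mouse is not stated in the labels, and if not, p-values measure only the spread between libraries, which may be technical. Per-library means of log2 CPM used a prior count of 2. Lengths and positions are those of GENCODE on GRCm38, the assembly of mm10, and promoters those of RefSeq.

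The 42 genes, the marker and pathway lists and the settings were chosen with earlier results of these data known. Besides the members, up to 4 genes of lowest p were named from each list, with the next one where fewer passed. Alternatives changed the normalization, the filter, the test (edgeR likelihood ratio, DESeq2 and limma-voom) and the threshold, removed the gene-length trend, or left out libraries. Of the hepatocyte markers listed, 15 of 16 were in the table used. The lists' counts include a few genes whose own values are not reported here. The 10 columns of other samples in the table were not used. The edgeR step was tested on simulated data. Software was R 4.3.3, edgeR 4.0.16, limma 3.58.1 and DESeq2 1.42.0.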

Additional observations from a re-analysis of the deposited data

Results flagged for a closer look

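Each of the 42 genes was examined in each group for a library far from the other 4 (Dixon's test at its 95% critical value for 5 samples, 0.71), and 7 of 84 groups had one, where chance gives about 1 in 20. In control ASO livers these were replicate 3 for Mbl2 (653 CPM) and Masp2 (379 CPM), and replicate 4 for C4b (1543 CPM). In Mboat7 ASO livers they were replicate 7 for C2 (131 CPM) and Cfi (871 CPM), replicate 8 for C4b (1643 CPM) and replicate 9 for C4bp (758 CPM). Each of the 7 was the highest library of its group. Mbl2 remained separate between groups with that library included.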

How the results depend on the processing

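No paired analysis was possible because the groups share no replicate numbers. Of the 30 members called, 16 kept call and direction under all 22 alternatives (C1qa, C1qb, C1qc and Masp1 higher, and Fgg, F2, F7, F10, Kng1, Plg, Serpinf2, Proc, Serpinc1, Mbl2, C8g and Vtn lower), and 6 lost their call when 1 library was left out. Members that fell numbered 13 with no normalization factor, and 5 rose and 13 fell at an FDR of 0.01. Leaving out each library gave 7 to 10 higher, 17 to 22 lower, 3 to 4 past 2-fold, a contrast of C1q with hepatocyte-made members of 1.39 to 1.87 and a difference in the share of counts of -0.303 to -0.158 percentage points. Without libraries 2 and 9, the highest control and the lowest treated library for the C1q chains, 8 rose and 22 fell. Directions turned with no normalization factor for F13b (0.0406), Masp2 (0.0557), C3 (0.0895), C4bp (0.00725) and Lep (0.0642), for C4b with the gene-length trend removed (-0.0665) and for Ggcx without libraries 2 and 9 (-0.00405). Cfb, near 0, turned with TMM (-0.0155), RLE and DESeq2 (-0.0118 each), filterByExpr (-0.00370), 1 CPM in at least 5 libraries (-0.00243), no filter (-0.00266), the length trend removed (-0.00832) and some left-out libraries (range -0.0165 to 0.0291). C2 (-0.0325 to 0.0575) and Sox9 (-0.335 to 0.0820) also turned when certain single libraries were left out. The cause was not tested. Each group has 5 libraries, so changes of small size in scattered genes such as Cfd were not detectable.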
